A study of Homo sapiens with 8 samples.

Results

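The transcripts of the 5 NF-κB subunits (NFKB1, NFKB2, RELA, RELB and REL) and of 5 IκB proteins (NFKBIA, NFKBIB, NFKBIE, NFKBIZ and BCL3) were followed in U2OS cells, an established human osteosarcoma line. These 10 genes were picked by symbol from the 58735 genes of the deposited tables, as a family, with earlier results of these data known. The study asked what loss of WSB2, a substrate receptor of a cullin ubiquitin ligase, does to gene expression driven by NF-κB. The 8 libraries of bulk RNA form 4 groups of 2: cells with a control shRNA (labelled WT and called control cells) and cells with an shRNA against WSB2 (KD cells), each left unstimulated or given the inflammatory cytokine TNF-α for 5 h. The knockdown was made by viral infection and selection with puromycin, and the control cells carry a control hairpin; whether a line was 1 clone is not given in the sources used here. Nor is it given which WSB2 hairpin and what concentration of TNF-α were used for these libraries.

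NF-κB is a family of dimers assembled from RELA (p65), RELB, REL (c-Rel) and the p50 and p52 proteins, which are cut from the precursors encoded by NFKB1 and NFKB2. In a resting cell the dimers are held in the cytoplasm by IκB proteins. TNF-α activates the IκB kinase, the phosphorylated IκB is ubiquitinated and degraded, and the freed dimers enter the nucleus and switch on target genes, among them the genes of several IκB proteins and subunits, which closes a feedback loop. NFKBIZ (IκBζ) and BCL3 are atypical IκB proteins that act inside the nucleus as cofactors of p50 and p52 dimers.

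Levels are given in FPKM, fragments per kilobase of exon, normalised to library size, a measure that allows genes of different length to be compared. The test was limma's, applied to log2(FPKM + 1) of the 16528 genes with enough reads, and all 10 genes had enough. Calls were made where the p adjusted by Benjamini and Hochberg's method was under 0.05, and SE is the standard error of a log2 fold change. Nothing in the labels says that the libraries of a group came from separate cultures, so p-values measure only the spread between these libraries. In bulk RNA, fewer cells that make a transcript and less of it per cell cannot be told apart. Between 15601098 and 18677023 reads were recovered per library. WSB2 itself was at 25.0 to 28.0 FPKM in the 4 control libraries and at 8.38 to 9.18 FPKM in the 4 KD libraries. Of 10 osteoblast lineage markers, COL1A1 (172 to 269 FPKM) and SPARC (216 to 293 FPKM) were abundant. RUNX2 was at 1.29 to 2.94 FPKM, ALPL at 1.22 to 5.41 FPKM and SPP1 at 0.671 to 2.50 FPKM. COL1A2 was at 0.00929 to 0.0934 FPKM, BGLAP at 0 to 0.448 FPKM and SP7 at 0 to 0.0169 FPKM, and IBSP and TWIST1 were listed at 0 in all 8 libraries. Each of the 12 markers of leukocytes, endothelium and epithelium stayed at or below 0.482 FPKM. Enough reads for the test were found for 1 of 6 leukocyte, 2 of 3 endothelial and 3 of 3 epithelial markers. Of the markers tested, ITGAM, the only leukocyte marker among them, alone was called with TNF-α in control cells (log2 fold change 0.36). Its part in the results was not tested. The unstimulated KD libraries stood apart from the other 6. Reads of mitochondrial genes were 4.10% to 4.42% of the total against 1.11% to 2.03%, the mean GC content of their reads by gene was 49.5% to 50.0% against 52.6% to 53.3%, and the library size by which the authors had divided was 1.21 times the total against 0.925 to 1.03 times. The comparisons that use them cannot be made without them, and for these the values of the 10 genes are also given after each library was corrected for the GC content and length of its genes (the GC and length correction).

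The genes lie, in GRCh38 with the GENCODE 29 annotation, NFKB1 (ENSG00000109320) at chr4:102501329-102617302, NFKB2 (ENSG00000077150) at chr10:102394110-102402529, RELA (ENSG00000173039) at chr11:65653596-65663094, RELB (ENSG00000104856) at chr19:45001430-45038198, REL (ENSG00000162924) at chr2:60881521-60931610, NFKBIA (ENSG00000100906) at chr14:35401511-35404749, NFKBIB (ENSG00000104825) at chr19:38899700-38908893, NFKBIE (ENSG00000146232) at chr6:44258166-44265788, NFKBIZ (ENSG00000144802) at chr3:101827991-101861022, and BCL3 (ENSG00000069399) at chr19:44747705-44760044. RELA, NFKBIA and NFKBIE are on the minus strand and the other 7 on the plus strand. The gene lengths in the tables cover all annotated exons of a gene. NFKBIB shares 40 exon bases with SIRT2 and RELA shares 9 with AP001362.2, each on the opposite strand, and the strand setting of the counting is not given.

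The κB motif searched here is GGG, any 2 bases, TTT and CC, and the RefSeq promoter windows (GRCh38.p14, 250 bases before to 50 bases after a transcription start) were searched for it on both strands. Windows were at hand for 8 of the 10 genes, 14 windows in all, not for RELB and NFKBIE. A match was found in 7 of the 14 windows, which belong to 6 genes, and in 1.91% of all 35116 windows. A looser motif of GGG, any 5 bases and CC, which contains every strict match, was found in all 14 windows and in 58.7% of all windows. The strict matches are shown with 10 bases on either side, in the direction of transcription, with the match in capitals. They are shown because NF-κB is known to act on its own subunit and inhibitor genes, and a match is a description only.
NFKB1, chr4:102501300-102501329, plus strand: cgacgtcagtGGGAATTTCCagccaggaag
NFKB2, chr10:102394490-102394519, plus strand: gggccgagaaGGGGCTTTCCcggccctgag
NFKB2, chr10:102395674-102395703, plus strand: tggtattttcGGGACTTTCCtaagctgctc
REL, chr2:60881518-60881547, plus strand: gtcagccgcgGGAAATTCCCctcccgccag
NFKBIA, chr14:35404811-35404840, minus strand: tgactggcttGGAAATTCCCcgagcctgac
NFKBIB, chr19:38899931-38899960, plus strand: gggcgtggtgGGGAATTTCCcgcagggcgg
NFKBIZ, chr3:101827757-101827786, plus strand: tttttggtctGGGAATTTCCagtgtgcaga
In NFKB1, NFKB2, NFKBIB and NFKBIZ the match reads as searched, and in REL and NFKBIA it reads as the reverse complement. The core GGGAATTTCC was shared, letter for letter on one strand or the other, by NFKB1, REL, NFKBIA, NFKBIB and NFKBIZ, while both matches of NFKB2 differed from it. The windows of RELA and BCL3 held no strict match. The 250 bases before the start of NFKBIA (chr14:35404750-35404999, minus strand) and of NFKBIZ (chr3:101827740-101827989, plus strand) are given in full, as the inhibitor with the highest level after TNF-α and the inhibitor with the lowest, again with the match in capitals.
NFKBIA: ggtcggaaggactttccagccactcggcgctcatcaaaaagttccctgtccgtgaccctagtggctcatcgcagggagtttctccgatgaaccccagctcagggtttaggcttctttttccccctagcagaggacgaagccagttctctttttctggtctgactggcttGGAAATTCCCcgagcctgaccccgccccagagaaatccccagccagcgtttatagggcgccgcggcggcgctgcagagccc
NFKBIZ: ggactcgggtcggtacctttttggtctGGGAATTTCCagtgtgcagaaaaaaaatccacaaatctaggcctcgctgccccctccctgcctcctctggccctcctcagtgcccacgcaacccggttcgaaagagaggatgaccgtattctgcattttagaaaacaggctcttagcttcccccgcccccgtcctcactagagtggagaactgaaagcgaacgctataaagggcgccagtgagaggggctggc
The match lies 81 bases before the start in NFKBIA and 223 bases before it in NFKBIZ, counted to the first base of the match in the direction of transcription.

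In unstimulated control cells, NFKBIB, RELA, NFKB2 and NFKBIA were the most abundant of the 10 transcripts, at 30.6 ± 6.50, 28.1 ± 1.07, 26.0 ± 2.66 and 22.4 ± 3.34 FPKM (SD, n = 2). Neighbours in this order overlapped between libraries, while both libraries of NFKBIB and of RELA lay above both of NFKBIA. BCL3 (15.3 ± 0.963 FPKM) and RELB (14.9 ± 1.28 FPKM) overlapped each other below them, followed by NFKBIE (12.1 ± 1.60 FPKM) and NFKB1 (10.4 ± 1.64 FPKM), which also overlapped. NFKBIZ, at 1.30 ± 0.202 FPKM, and REL, at 0.156 ± 0.114 FPKM, lay far below the others. REL rests on 15 and 54 reads in these libraries, and 5702 of its 13170 exon bases (43.3%) are shared with the annotated transcript AC010733.2 on the same strand, which itself was listed at 0 reads, so the level of REL is uncertain.

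**Figure D1:**
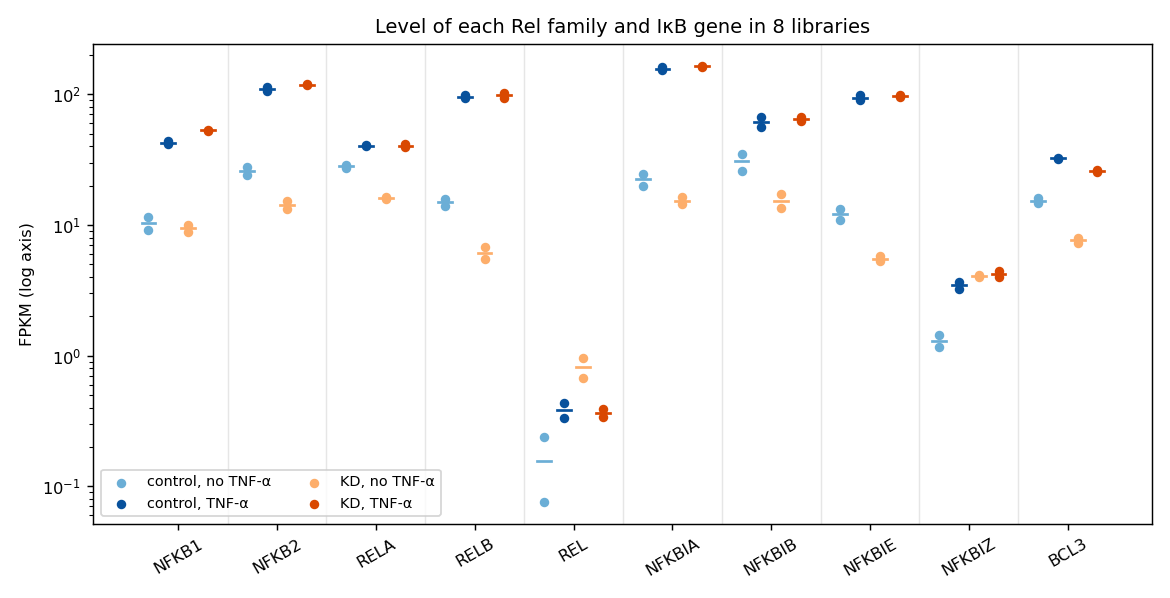
FPKM (log axis) of each of the 10 genes in the 8 libraries, by group; points are libraries and short lines are the means of 2. After TNF-α the control and KD libraries overlap for RELA, RELB, REL, NFKBIB and NFKBIE and are apart for the other 5 genes. How many of all genes are apart was not counted. NFKBIA is highest at 153 to 165 FPKM in the 4 libraries with TNF-α.

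TNF-α raised 9 of the 10 genes in control cells, a comparison in which 3.1% of all tested genes were called higher and 4.24% were called in either direction. The median log2 fold change of the 10 genes was 1.49, against 0.01 over all genes tested. NFKBIE and NFKBIA, which encode IκBε and IκBα, and RELB rose most. NFKB2 and NFKB1 rose about as much as each other, and RELA rose least among the called genes. The 9 calls were also made when the unstimulated KD libraries were left out of the fit.

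Among the subunits, RELB, the partner of p52, was at 15.8 and 14.0 FPKM without and at 93.5 and 98.6 FPKM with TNF-α, 6.45-fold higher, with a log2 fold change of 2.61 (SE 0.106, adjusted p = 1.71e-05). NFKB2, the p52 precursor, was at 27.9 and 24.1 FPKM without and at 106 and 113 FPKM with TNF-α, a log2 fold change of 2.03 (SE 0.102, adjusted p = 4.13e-05). NFKB1, the p50 precursor, was at 9.20 and 11.5 FPKM without and at 43.6 and 41.7 FPKM with TNF-α, a log2 fold change of 1.95 (SE 0.108, adjusted p = 6.86e-05). For these 3 genes every stimulated library exceeded the unstimulated libraries by more than 3-fold. RELA was at 27.3 and 28.9 FPKM without and at 41.0 and 39.9 FPKM with TNF-α, only 1.44-fold higher, with a log2 fold change of 0.51 (SE 0.0719, adjusted p = 0.00828). The RELA libraries did not overlap, but the call was lost when only the 4 control libraries were fitted (adjusted p = 0.107) and when either stimulated control library was left out (adjusted p = 0.0889 and 0.0775). REL was at 0.0760 and 0.237 FPKM without and at 0.334 and 0.433 FPKM with TNF-α. These groups did not overlap either, and the difference of 0.26 on the log2(FPKM + 1) scale, which understates changes below 1 FPKM, did not pass the test (adjusted p = 0.235).

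Among the inhibitors, NFKBIA, the IκB that TNF-α is best known to induce, was at 24.7 and 20.01 FPKM without and at 153 and 161 FPKM with TNF-α, 7.02-fold higher, with a log2 fold change of 2.76 (SE 0.111, adjusted p = 1.66e-05). NFKBIE was at 13.3 and 11.0 FPKM without and at 90.0 and 98.5 FPKM with TNF-α, 7.78-fold higher, with a log2 fold change of 2.86 (SE 0.102, adjusted p = 9.05e-06). NFKBIB, which encodes IκBβ, was at 35.2 and 26.0 FPKM without and at 55.8 and 67.5 FPKM with TNF-α, with a log2 fold change of 1.00 (SE 0.168, adjusted p = 0.0188). Thus NFKBIB started above NFKBIA and NFKBIE and ended below both. It also varied most between libraries of a group, and its call was lost without a filter on low reads (adjusted p = 0.101), with only the 4 control libraries (0.0669) and without either stimulated control library (0.0566 and 0.141). The nuclear inhibitors rose less than NFKBIA and NFKBIE. BCL3 was at 16.0 and 14.7 FPKM without and at 32.3 and 32.1 FPKM with TNF-α, a log2 fold change of 1.02 (SE 0.0805, adjusted p = 4.31e-04). NFKBIZ was at 1.15 and 1.44 FPKM without and at 3.22 and 3.67 FPKM with TNF-α, 2.66-fold higher, with a log2 fold change of 0.95 (SE 0.115, adjusted p = 0.00377) on the scale that understates low genes.

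After TNF-α the order in control cells was NFKBIA (157 ± 5.33 FPKM), NFKB2 (109.5 ± 5.33 FPKM), RELB (96.1 ± 3.66 FPKM), NFKBIE (94.3 ± 6.01 FPKM), NFKBIB (61.6 ± 8.28 FPKM), NFKB1 (42.6 ± 1.33 FPKM), RELA (40.4 ± 0.813 FPKM) and BCL3 (32.2 ± 0.121 FPKM; SD, n = 2 each). RELB and NFKBIE were the only neighbours in it whose libraries overlapped. RELA, among the most abundant transcripts before stimulation, was thus below 6 of the other 9 afterwards.

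In KD cells TNF-α raised 8 of the 10 genes and lowered REL, and NFKBIZ was not called. Here 31.1% of all tested genes were called higher and 31.4% lower, 62.5% in all, and the comparison uses the unstimulated KD libraries that stand apart. With the libraries scaled to total reads, 31.4% of all calls in this comparison were higher, against 49.8% as reported, and 8 of the 10 genes were again called higher. Over all 10 genes the median log2 fold change was 2.19, against -0.01 over all genes tested. NFKBIE went from 5.26 and 5.78 FPKM to 99.2 and 95.4 FPKM, 17.6-fold higher, with a log2 fold change of 3.92 (SE 0.102, adjusted p = 1.20e-06). RELB went from 6.73 and 5.53 FPKM to 94.3 and 103 FPKM, 16.1-fold higher, with a log2 fold change of 3.81 (SE 0.106, adjusted p = 1.71e-06). NFKBIA went from 16.3 and 14.4 FPKM to 163 and 165 FPKM, 10.7-fold higher, with a log2 fold change of 3.34 (SE 0.111, adjusted p = 3.44e-06). In each of these genes the stimulated KD libraries ended near the stimulated control libraries and the unstimulated KD libraries began lower. NFKB2 rose by a log2 fold change of 2.98, NFKB1 by 2.38, NFKBIB by 2.01, BCL3 by 1.65 and RELA by 1.27, with adjusted p-values between 4.08e-06 and 7.69e-05. With the GC and length correction these 8 genes were again called higher, with log2 fold changes of 3.28 for NFKBIE, 3.12 for RELB, 2.84 for NFKBIA, 2.37 for NFKB1, 2.35 for NFKB2, 1.39 for NFKBIB, 0.95 for BCL3 and 0.77 for RELA. In that fit 56.9% of all genes were called, and 51.4% of those calls were higher. NFKBIZ was at 3.97 and 4.16 FPKM without and at 4.01 and 4.42 FPKM with TNF-α, libraries that overlapped, with a log2 fold change of 0.04 (SE 0.115, adjusted p = 0.771) and of 0.08 with the correction (adjusted p = 0.487). REL was at 0.678 and 0.964 FPKM without and at 0.387 and 0.336 FPKM with TNF-α, a log2 fold change of -0.42 (SE 0.101, adjusted p = 0.0081). The direction was not stable: with the GC and length correction REL was called higher, with a log2 fold change of 0.31 (adjusted p = 0.0150).

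**Figure D2:**
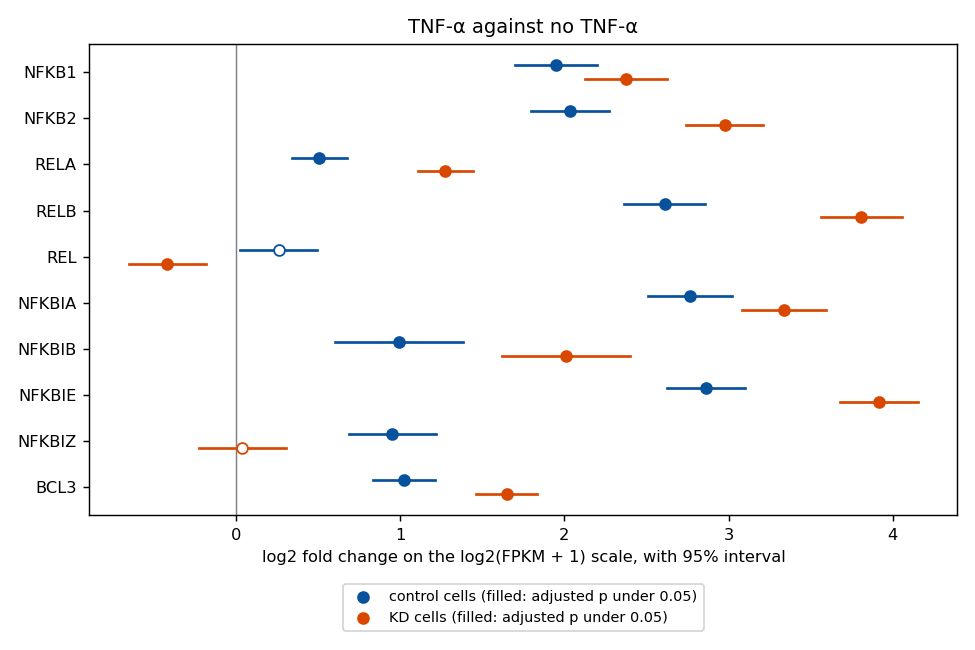
Log2 fold change of TNF-α against no TNF-α on the log2(FPKM + 1) scale for each gene, in control cells and in KD cells (2 libraries per group), with 95% intervals; filled points passed an adjusted p of 0.05. In control cells 9 of 10 points are filled and above 0; in KD cells the values of RELB and NFKBIE reach 3.81 and 3.92, NFKBIZ lies at 0.04, and the negative value of REL turned positive with the GC and length correction.

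Without TNF-α, 7 of the 10 genes were lower and 2 were higher in KD than in control cells, and NFKB1 was not called. In this comparison 60.1% of all tested genes were called, 30.2% lower and 29.8% higher. With the libraries scaled to total reads, 65.3% of all calls were higher, against 49.7% as reported. RELB was lowest in relative terms, at 41.2% of its control level, with a log2 fold change of -1.16 (SE 0.106, adjusted p = 1.72e-04). NFKBIE followed at 45.5% (log2 fold change -1.01, SE 0.102, adjusted p = 2.24e-04). BCL3 was at 7.98 and 7.27 FPKM in KD cells, 49.7% of its control level, with a log2 fold change of -0.92 (SE 0.0805, adjusted p = 1.61e-04). NFKBIB, at 17.2 and 13.5 FPKM, was at 50.2% (log2 fold change -0.94, adjusted p = 0.00194), NFKB2, at 15.3 and 13.1 FPKM, at 54.6% (-0.83, adjusted p = 3.95e-04), and RELA, at 16.3 and 15.8 FPKM, at 57.2% (-0.77, adjusted p = 1.83e-04). NFKBIA was lowered least, to 68.6% (log2 fold change -0.51, SE 0.111, adjusted p = 0.00497). In all 7 genes both KD libraries were below both control libraries. The share of all genes apart in this way was not counted. NFKB1, at 8.89 and 9.92 FPKM in KD cells, overlapped its control libraries, with a log2 fold change of -0.12 (SE 0.108, adjusted p = 0.363). Without the first unstimulated control library it was -0.27 and was called (adjusted p = 0.0266), and without the second it was 0.03 and was not.

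NFKBIZ and REL went the other way. NFKBIZ was 3.14-fold higher in unstimulated KD cells, with a log2 fold change of 1.14 (SE 0.115, adjusted p = 2.15e-04), and its 3.97 and 4.16 FPKM there lay above the 3.22 and 3.67 FPKM of stimulated control cells. REL was at 0.821 ± 0.202 FPKM (SD, n = 2) against 0.156 ± 0.114 FPKM, with a log2 fold change of 0.65 (SE 0.101, adjusted p = 9.95e-04) on the scale with a pseudocount of 1 and of 1.90 with a pseudocount of 0.1 (adjusted p = 0.00192). REL has the lowest GC content of the 10 genes, 38.8%, and the longest exons.

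The GC content of the genes moved with the direction of these differences. The 7 lower genes had a GC content of 56.1% to 64.3%, NFKB1 had 47.8%, NFKBIZ 46.9% and REL 38.8%. Over all tested genes the same held: the median log2 fold change was 0.44 over the 5905 genes with a GC content under 45% and -0.62 over the 2180 genes with at least 60%, and Spearman's rho across genes, which are not independent replicates, was -0.69. Among the 5 members with at least 60% GC, RELB, NFKBIE, NFKBIB and BCL3 lay below the lower quartile of that bin, -0.89, and NFKB2 lay above it. NFKBIZ, at 1.14, lay far above the upper quartile, 0.28, of the genes with 45% to 50% GC. NFKB1 lay between the quartiles of that bin, -0.22 and 0.28, and REL between those of the genes under 45%, 0.13 and 0.83. Of the genes with 55% to 60% GC the quartiles were -0.746 and -0.106. NFKBIA lay between them and RELA, at -0.768, just below the lower. With the GC and length correction, 51.8% of all genes were called and 7 of the 10 genes, 6 lower and 1 higher. NFKBIZ kept a log2 fold change of 1.07 (adjusted p = 4.40e-04). RELB was at -0.51, NFKBIE at -0.39, RELA and NFKBIB at -0.34, BCL3 at -0.28 and NFKB2 at -0.27, with adjusted p-values between 0.00107 and 0.0280. NFKBIA, at -0.03 (adjusted p = 0.714), and REL, at -0.14 (adjusted p = 0.182), were no longer called, and REL changed its direction. NFKBIA was also not called after scaling to total reads (log2 fold change -0.24, adjusted p = 0.0502).

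**Figure D3:**
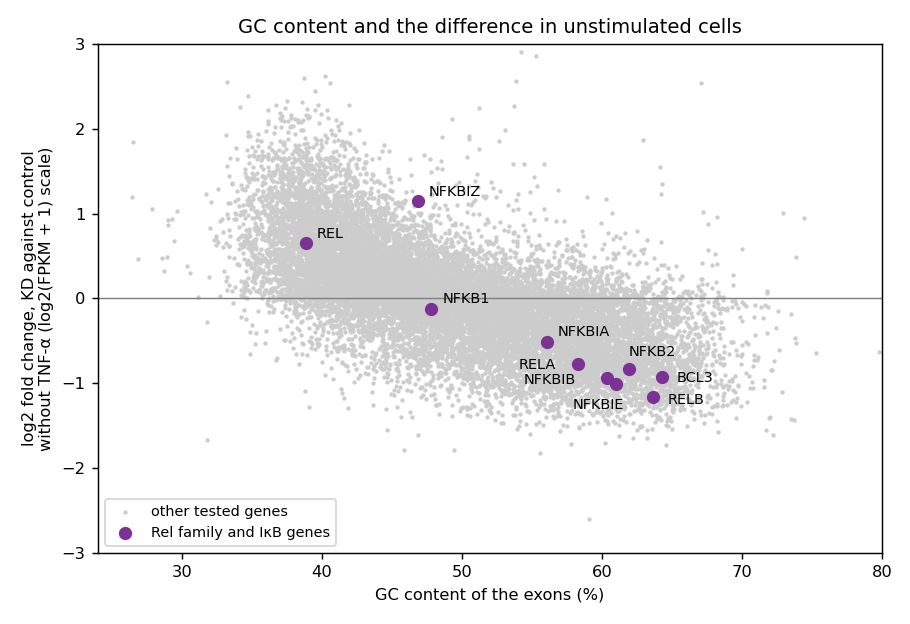
Log2 fold change of KD against control without TNF-α (log2(FPKM + 1) scale) against the GC content of a gene's exons, for 16505 other tested genes (grey; 5 lie outside the axes) and the 10 genes (purple). The 7 genes called lower lie at 56.1% to 64.3% GC, where most grey points are below 0, REL lies at 38.8% and NFKBIZ at 46.9% and 1.14.

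With TNF-α, limma called 0 of the 10 genes between KD and control cells, where 0.115% of all tested genes were called, 0.0605% higher and 0.0545% lower. Of the 10 genes 2 had an unadjusted p under 0.05, as had 1348 of the 16528 genes tested. The voom fit of the recovered reads also called 0 of the 10. NFKB1 was at 43.6 and 41.7 FPKM in control and at 52.5 and 53.5 FPKM in KD cells, 1.24-fold higher without overlap, with a log2 fold change of 0.31 (95% interval 0.06 to 0.56, unadjusted p = 0.0224, adjusted p = 0.483). BCL3 was at 32.3 and 32.1 FPKM in control and at 25.6 and 26.5 FPKM in KD cells, also without overlap, with a log2 fold change of -0.30 (95% interval -0.48 to -0.11, unadjusted p = 0.0065, adjusted p = 0.304). Over the alternatives the adjusted p ranged from 0.0848 to 1 for NFKB1 and from 0.0858 to 0.934 for BCL3. The libraries of NFKBIZ, NFKB2 and NFKBIA did not overlap either, all higher in KD cells, with log2 fold changes of 0.23, 0.11 and 0.06. How many of all genes were apart in this way was not counted. Without any difference, 2 against 2 libraries are apart with a probability of 0.333. RELA, whose chromatin-bound protein the study follows, was at 41.0 and 39.9 FPKM in control and at 41.4 and 39.3 FPKM in KD cells, with a 95% interval of the log2 fold change from -0.17 to 0.16. The intervals of RELB (-0.21 to 0.28), NFKBIE (-0.19 to 0.28) and NFKBIB (-0.32 to 0.46) included 0, and their libraries overlapped. An interval that includes 0 does not show equal levels. The stimulated libraries were alike in GC content, with a Spearman's rho of 0.04 between GC content and the difference across genes. Leaving the unstimulated KD libraries out of the fit gave 0 calls as well.

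**Figure D4:**
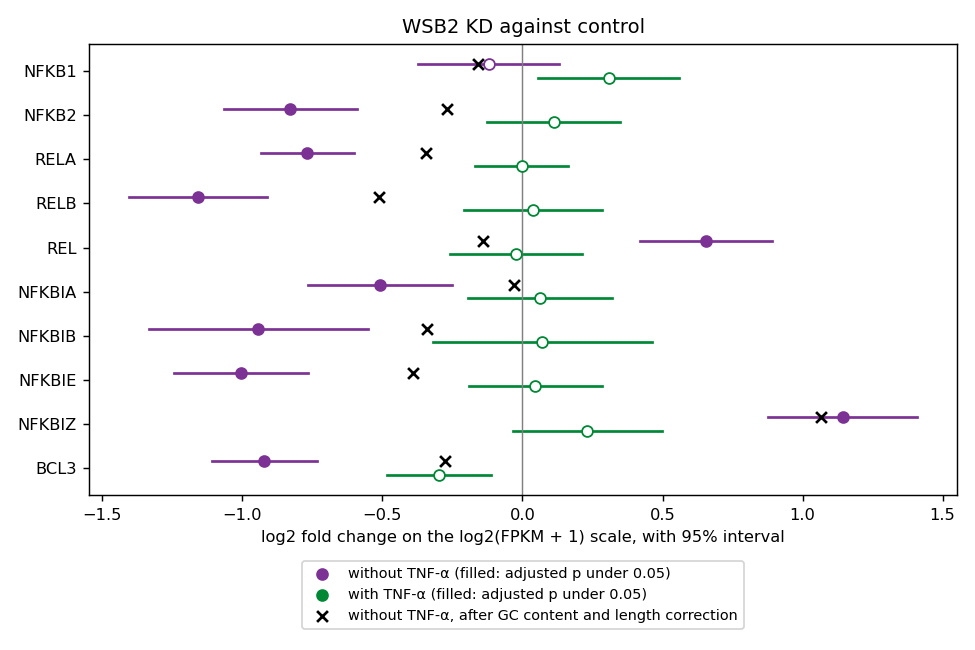
Log2 fold change of KD against control (log2(FPKM + 1) scale, 2 libraries per group) for each gene, without and with TNF-α, with 95% intervals; filled points passed an adjusted p of 0.05, and crosses are the values without TNF-α with the GC and length correction. No point with TNF-α is filled, the crosses lie closer to 0 than the points for every gene but NFKB1, the cross of REL lies on the other side of 0, and the cross of NFKBIZ stays at 1.07.

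The TNF-α effect differed between KD and control cells for 9 of the 10 genes in the test of the interaction, where 46.1% of all genes were called, 23.8% with a larger and 22.3% with a smaller value in KD cells. It was larger in KD cells for RELB, by 1.20 on the log2 scale (SE 0.150, adjusted p = 0.00163), for NFKBIE by 1.05, NFKBIB by 1.01, NFKB2 by 0.94, RELA by 0.77, BCL3 by 0.62 and NFKBIA by 0.57, with adjusted p-values up to 0.0196. It was smaller in KD cells for NFKBIZ, with a difference of -0.91 (SE 0.162, adjusted p = 0.00388), and for REL, with a difference of -0.68 (SE 0.143, adjusted p = 0.00727). NFKB1 had a difference of 0.43 (SE 0.153, adjusted p = 0.0515). This test shares its libraries with the comparisons above and is not independent of them. With the GC and length correction 35.1% of all genes were called, and 6 of the 10 genes. RELB (0.55), NFKB1 (0.45), NFKBIE (0.44), NFKB2 (0.38) and RELA (0.34) had a larger effect in KD cells and NFKBIZ (-0.85) a smaller one. NFKBIA was then at 0.10 (adjusted p = 0.442), NFKBIB at 0.42 (0.0601), BCL3 at -0.03 (0.825) and REL at 0.13 (0.418). With the direction kept, the interaction call was lost under 4 alternatives for NFKBIA, 2 for NFKBIB and 1 for RELA. For NFKBIA it was also lost in 4 of the fits that left out a single library. BCL3 and REL lost their calls with the GC and length correction, where their direction turned. When single libraries were left out, the difference of NFKBIA ran from 0.43 to 0.72. With the libraries scaled to total reads, 32.9% of all calls of the interaction were higher, against 51.7% as reported.

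Shares within a library do not depend on how libraries are scaled to each other. Among the summed FPKM of the 5 subunit genes, RELA made up 34.0% and 36.7% in unstimulated control and 34.1% and 34.9% in unstimulated KD cells, and 12.5% to 14.4% in the 4 stimulated libraries. RELB rose from 17.8% to 19.7% in unstimulated control and from 12.2% to 14.1% in unstimulated KD cells to 30.8% to 33.6% after TNF-α. NFKB2 made up 28.9% to 34.7% before and 37.2% to 38.5% after TNF-α. NFKB1 made up 11.5% and 14.6% in unstimulated control, 18.5% and 21.9% in unstimulated KD and 14.2% to 17.2% in stimulated cells. REL did not exceed 2.12% in any library. By FPKM the share of RELA in unstimulated KD cells lay within that in unstimulated control cells. RELB had a smaller and NFKB1 a larger share there, without overlap of the libraries. As shares of the recovered reads, RELA made up 39.2% and 41.1% in unstimulated control and 36.7% and 36.5% in unstimulated KD cells, without overlap. No test was run on the shares, and the part of the different GC content of these KD libraries in them was not tested.

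The ratio of NFKBIA to RELA transcripts (FPKM over FPKM) was 0.905 and 0.693 in unstimulated control, 1.00 and 0.908 in unstimulated KD, 3.74 and 4.03 in stimulated control and 3.93 and 4.20 in stimulated KD cells. NFKBIE over RELA was 0.485 and 0.381, 0.322 and 0.365, 2.20 and 2.47, and 2.39 and 2.43 in the same order. NFKBIE was thus below RELA in every unstimulated and above it in every stimulated library. RELB over NFKB2, the components of the noncanonical dimer, was 0.566 and 0.579 in unstimulated control, 0.440 and 0.421 in unstimulated KD and 0.804 to 0.884 in stimulated cells. NFKBIA, NFKBIB and NFKBIE summed over the 5 subunits gave 0.724 to 0.911 in unstimulated and 1.02 to 1.11 in stimulated libraries.

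**Figure D5:**
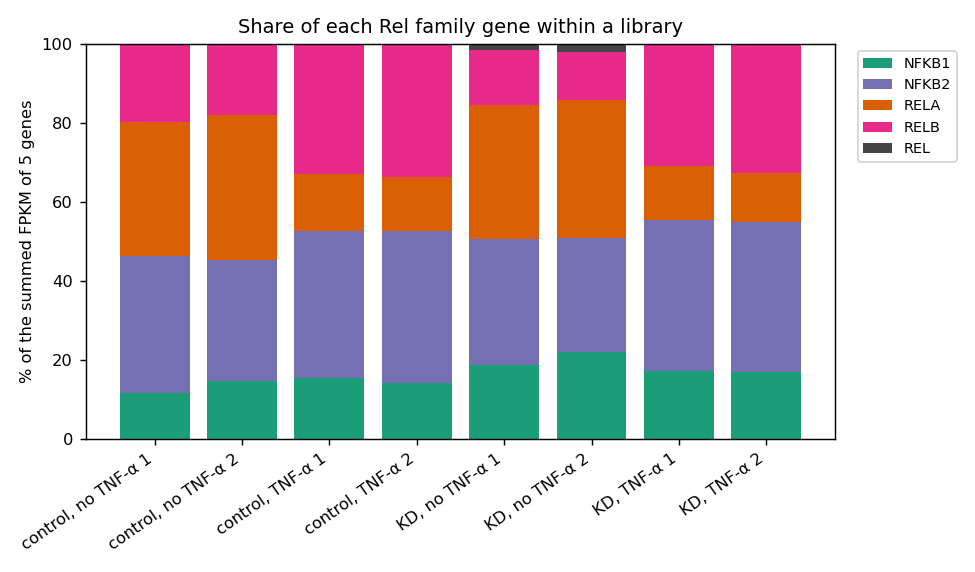
Share of each of the 5 Rel family genes in their summed FPKM (per cent) in each of the 8 libraries. RELA falls from 34.0% to 36.7% without TNF-α to 12.5% to 14.4% with it, and RELB reaches 30.8% to 33.6%.

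Of the 33 other genes of the pathway on a list that runs from the IκB kinase to the enzymes that end the signal, 9 were called higher and 0 lower with TNF-α in control cells, against 3.1% and 1.14% of all tested genes, and their median log2 fold change was 0.12. All 5 ligases and adaptors that act at the TNF receptor or on the kinase NIK were called higher: TRAF1 by a log2 fold change of 4.43, BIRC3 by 2.78, BIRC2 by 1.20, TRAF3 by 1.06 and TRAF2 by 0.65, the last with an adjusted p of 0.0392 that was lost under 4 alternatives or with any of 6 single libraries left out. Of 7 deubiquitinases and their partners 4 were called: TNFAIP3, which encodes the ubiquitin-editing enzyme A20, by 3.87, its partners TNIP1 by 1.74 and TNIP3 by 0.96, and CYLD by 0.74. The call of CYLD was lost without either stimulated control library (adjusted p = 0.0968 and 0.0588) and with only the 4 control libraries (0.0975). None of the 9 genes of IκB kinase subunits, upstream kinases and the adaptors TAB1, TAB2 and TAB3 was called. Nor was any of the 5 subunits of the ligase that marks IκB for degradation or of the 7 other IκB-like genes and regulators. Of these genes only IKBKB, a kinase subunit, had an unadjusted p under 0.05, as had 2899 of the 16528 genes tested. In KD cells 17 of the 33 were called higher and 8 lower after TNF-α, against 31.1% and 31.4% of all tested genes. With the GC and length correction 15 were higher and 5 lower, where 56.9% of all genes were called, 51.4% of them higher. Among the 17 called higher without the correction were TRAF1 (5.09), TNFAIP3 (3.57) and TNIP1 (2.73), values of that fit. BIRC2, called lower at -0.40, was at 0.18 with the correction, and its call was also lost without the second unstimulated or the second stimulated KD library (adjusted p = 0.0728 and 0.0694). Without TNF-α, 13 were higher and 10 lower in KD cells, against 29.8% and 30.2% of all tested genes. With the correction 9 were higher and 10 lower, where 51.8% of all genes were called, 45.8% of them higher. BIRC2 was higher by 1.73 (1.16 with the correction), TAB2 by 1.24 (0.91) and CHUK, the gene of IKKα, by 1.04 (0.30), and NFKBIL1 was lower, at -1.50 (-0.86). IKBKG, the gene of NEMO, was called lower at -0.74, a call that was lost with the correction (-0.14, adjusted p = 0.428) and without the second unstimulated KD library (-0.63, adjusted p = 0.0801). With TNF-α 0 of the 33 were called between KD and control cells. An unadjusted p under 0.05 was found for 3, TRAF1, BIRC3 and NFKBID, and for 1348 of the 16528 genes tested. TRAF1 came nearest, at 43.4 and 43.9 FPKM in control and 61.8 and 65.0 FPKM in KD cells, with a log2 fold change of 0.53 (adjusted p = 0.117). It was called in the voom fit (0.54, adjusted p = 0.0327) and with the GC and length correction (0.52, adjusted p = 0.0480), but not under every alternative. When single libraries were left out, its log2 fold change ran from 0.49 to 0.56.

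Genes with the most similar pattern over the 8 libraries were taken by the root mean square difference of log2(FPKM + 1), each gene centred on its own mean, for the 9 members whose group means spanned at least 1. NFKB1 was nearest to PIK3CD, the gene of a phosphoinositide 3-kinase subunit, at 0.0606, and NFKB2 to the AP-1 gene JUNB at 0.110. RELB and NFKBIE had each other as the nearest member, at 0.148, and shared the cytokine gene IL32 as the nearest of the other genes, at 0.158 and 0.257. NFKBIA was nearest to TNFRSF9, the gene of the receptor CD137, at 0.211, followed by IL4I1 and MMP9. RELA was nearest to SEMA4B at 0.0565, NFKBIB to AC242842.1 at 0.0822, BCL3 to SQSTM1 at 0.0816, and NFKBIZ to FRMD6 at 0.113. TNIP1, a pathway gene, was among the 3 nearest of NFKB2, at 0.144. The 8 libraries form 4 groups, so this likeness is a description of the group pattern.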

How the data were processed

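Total RNA of U2OS cells was sequenced at Novogene (Illumina NovaSeq). The authors deposited FPKM values for 58735 genes of GENCODE release 29 (GRCh38) in 8 libraries. The submitters' processing notes name CASAVA 1.8, fastp, HISAT2 2.0.5, featureCounts 1.5.0-p3 and DESeq2, with no order or role, and the strand setting of the counting is not given in the sources used here. Each deposited FPKM value times its gene length came out at whole reads once divided by 1 number per library (100% of values, tolerance 0.02), so reads could be recovered, and the library size implied by the values was 0.925 to 1.21 times the total. Intervals and standard errors cover the spread between libraries only.

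From these values, log2(FPKM + 1) was tested with limma 3.58.1 in R 4.3.3, with a mean per group over all 8 libraries, 4 residual degrees of freedom and a trend on mean expression. The filter asked for 10 reads at median depth in 2 or more libraries and for 15 reads over all 8. The count test named in the study's methods was not run, and the recovered reads were fitted with limma's voom as an alternative. Groups came from the labels, and 5 comparisons were made. The 10 genes, the pathway list and the marker lists were chosen with earlier results of these data known. Named genes are the 10 members, WSB2, listed pathway genes and the 3 genes nearest in pattern to each member; which pathway genes are given with values in comparisons of KD cells was chosen after their values were seen. Promoter sequences and their windows are from RefSeq. Alternatives were a pseudocount of 0.1, no filter on reads, a mean of at least 1 CPM, total-read and upper-quartile scaling, a spline correction for GC content and gene length (5 degrees of freedom), a voom fit, a replicate block, only the 4 libraries compared, the fit without the unstimulated KD libraries, and each library left out. The fit was tested on simulated data. Tables and plots were made in Python 3.11.15 (pandas 2.3.3, matplotlib 3.10.9).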

Additional observations from a re-analysis of the deposited data

Results flagged for a closer look

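The effect of TNF-α differed between KD and control cells by the interaction test for 9 of the 10 genes, where 46.1% of all tested genes differed. The difference was 1.20 on the log2 scale for RELB, 1.05 for NFKBIE, 1.01 for NFKBIB, 0.94 for NFKB2, 0.77 for RELA, 0.62 for BCL3, 0.57 for NFKBIA, -0.91 for NFKBIZ and -0.68 for REL. All 9 use the unstimulated KD libraries, whose reads by gene had a mean GC content of 49.5% to 50.0% against 52.6% to 53.3% in the other 6, and the part of this in the differences was tested only by the GC and length correction described above. Groups of 2 libraries allow no test for an outlying library.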

How the results depend on the processing

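Of the 5 counts of called genes, every one stayed within 1.5 times its value under each alternative but 1: the interaction fell from 9 to 5 genes when a replicate block was joined to the GC and length correction. In that fit 33.5% of all genes were called for the interaction. The replicate block alone gave 9, 9, 9, 0 and 10 calls for TNF-α in control cells, TNF-α in KD cells, KD without TNF-α, KD with TNF-α and the interaction. The replicate numbers did not pair the libraries, with correlations of deviations from -0.19 to 0.35, and crossing the numbers in stimulated control cells, tried after seeing the data, gave 9 calls.

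Some directions turned. With the GC and length correction, with or without the block, REL was at 0.31 for TNF-α in KD cells, -0.14 for KD without TNF-α and 0.13 for the interaction, BCL3 was at -0.029 for the interaction and BIRC2 at 0.18 for TNF-α in KD cells. Scaled to total reads, which put the median of all genes at 0.13 for KD without TNF-α and at -0.19 for TNF-α in KD cells, NFKB1 was at 0.14 and NFKBIZ at -0.27 in these comparisons, and NFKBIZ was at -0.039 with upper-quartile factors. When single libraries were left out, the log2 fold change ran from -0.015 to 0.097 for NFKBIZ with TNF-α in KD cells and from -0.27 to 0.027 for NFKB1 in KD without TNF-α. For KD with TNF-α it ran from -0.041 to 0.035 for RELA, -0.026 to 0.098 for RELB, -0.074 to 0.029 for REL, -0.065 to 0.21 for NFKBIB and -0.018 to 0.11 for NFKBIE. Without the second unstimulated KD library the call of REL for TNF-α in KD cells was lost. The counts then ran from 7 to 9, 8 to 9, 9 to 10, 0 to 0 and 8 to 10 in the order above. The cause was not tested. With 2 libraries a group, and 15 to 245 reads for REL, small differences were beyond these data.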
